A study of Mus musculus with 8 samples.

Results

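The genes described here encode 3 families of metalloproteinase, which cut proteins at the cell surface and in the extracellular matrix, together with the inhibitors that hold them in check. They were taken by symbol from a table of normalised RNA-seq counts: each row named Adam, Adamts, Mmp or Timp followed directly by a digit, without Mmp8 and Mmp9. This gave 77 of 23413 genes, made up of 33 Adam, 19 Adamts, 21 Mmp and 4 Timp genes. The table held 8 mouse libraries of sorted cells from 3 populations, namely repopulating microglia (n = 3), wild-type microglia (n = 2) and bone-marrow macrophages (n = 3).

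Wild-type microglia carried the strain label DTR, and both other populations the label DTRmg, so strain label and population cannot be told apart in any comparison with wild type. All 8 samples share one protocol text. It describes tamoxifen, 2 mg under the skin on postnatal days 12 and 14, then 3 injections of 500 ng diphtheria toxin. The promoter that drives the toxin receptor or a recombinase was not in the descriptions, nor was the site, marrow or brain, from which the bone-marrow macrophages were taken. Separate animals are not named for the replicates, so every p-value reflects the scatter among these libraries, which may be technical. The macrophage libraries bear the name mono in the table and were assigned by exclusion.

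Metalloproteinases of these families hold a zinc ion in the active site and are made as inactive proenzymes. ADAM proteases sit in the membrane and release the outer part of other membrane proteins, such as TNF, Notch receptors and growth-factor precursors. ADAMTS proteases are secreted and cut matrix proteoglycans and procollagens, matrix metalloproteinases (MMPs) degrade matrix and process cytokines, and TIMPs are small secreted proteins that block these enzymes. In brain, microglia and macrophages are among the cells that release them.

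Reads in genes ran from 5918944 to 12476427 per library, of which these genes took 0.193% to 0.284%. Summed over 8 microglial markers, normalised counts were 404205 and 368851 in the wild-type, 239854 to 280453 in the repopulating and 92508 to 103115 in the macrophage libraries. Repopulating replicate 3 stood apart: over tested genes its log2 levels correlated with replicates 1 and 2 at r = 0.938 and 0.918, against 0.979 between those 2. Wild-type libraries held the most neutrophil transcripts, 27721 and 25726 over 8 markers, against 1647 to 2956 in repopulating microglia and 799 to 1339 in macrophages. Monocyte markers (5 genes) also summed highest there, to 5471 and 3414, against 349 to 753 in repopulating microglia and 1336 to 2062 in macrophages. Ly6c2 and Plac8 gave most of the wild-type sums, and Ccr2, F13a1 and Vcan overlapped between wild-type and macrophage libraries. Levels below are normalised counts, meaning reads divided by the size factor the authors applied to each library. In bulk RNA, fewer cells of a type and less RNA per cell cannot be told apart.

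Most of the genes were silent or close to it. No read fell in 28 of the 77 in any library, and another 26 had 1 to 54 reads over all 8 libraries. A count of 0 allows up to 3 reads and covers counting error only. At 0 were 15 Adam genes (Adam1b, Adam2, Adam6a, Adam6b, Adam7, Adam18, Adam20, Adam24, Adam25, Adam26a, Adam26b, Adam29, Adam30, Adam34 and Adam39), several of which are known for their role in sperm. Also at 0 were 6 Adamts genes (Adamts9, Adamts12, Adamts13, Adamts18, Adamts19 and Adamts20) and 7 Mmp genes (Mmp1a, Mmp1b, Mmp3, Mmp7, Mmp10, Mmp20 and Mmp21). Stromelysin Mmp3 and matrilysin Mmp7 are among the MMPs most studied in inflamed tissue. Each of the 4 Timp genes had reads.

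Several silent genes lay in chromosomal clusters. On chromosome 9, 9 of the Mmp genes selected here lie within chr9:7272514-7699585 (GRCm38), and 6 of them were at 0. Genes outside the selection, Mmp8 and Mmp9 among them, were not counted in any cluster. Of these 9, the 2 that reached a testable level, Mmp13 and Mmp12, are neighbours at one end of the cluster. On chromosome 8, the 4 Adam genes of chr8:40675077-40827037 and the 3 of chr8:43519762-43710049 were at 0. Another group, chr8:24602246-25016927, held Adam18 at 0, Adam5 and Adam32 with 2 reads and 1 read, and the testable Adam3 and Adam9.

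**Figure D1:**
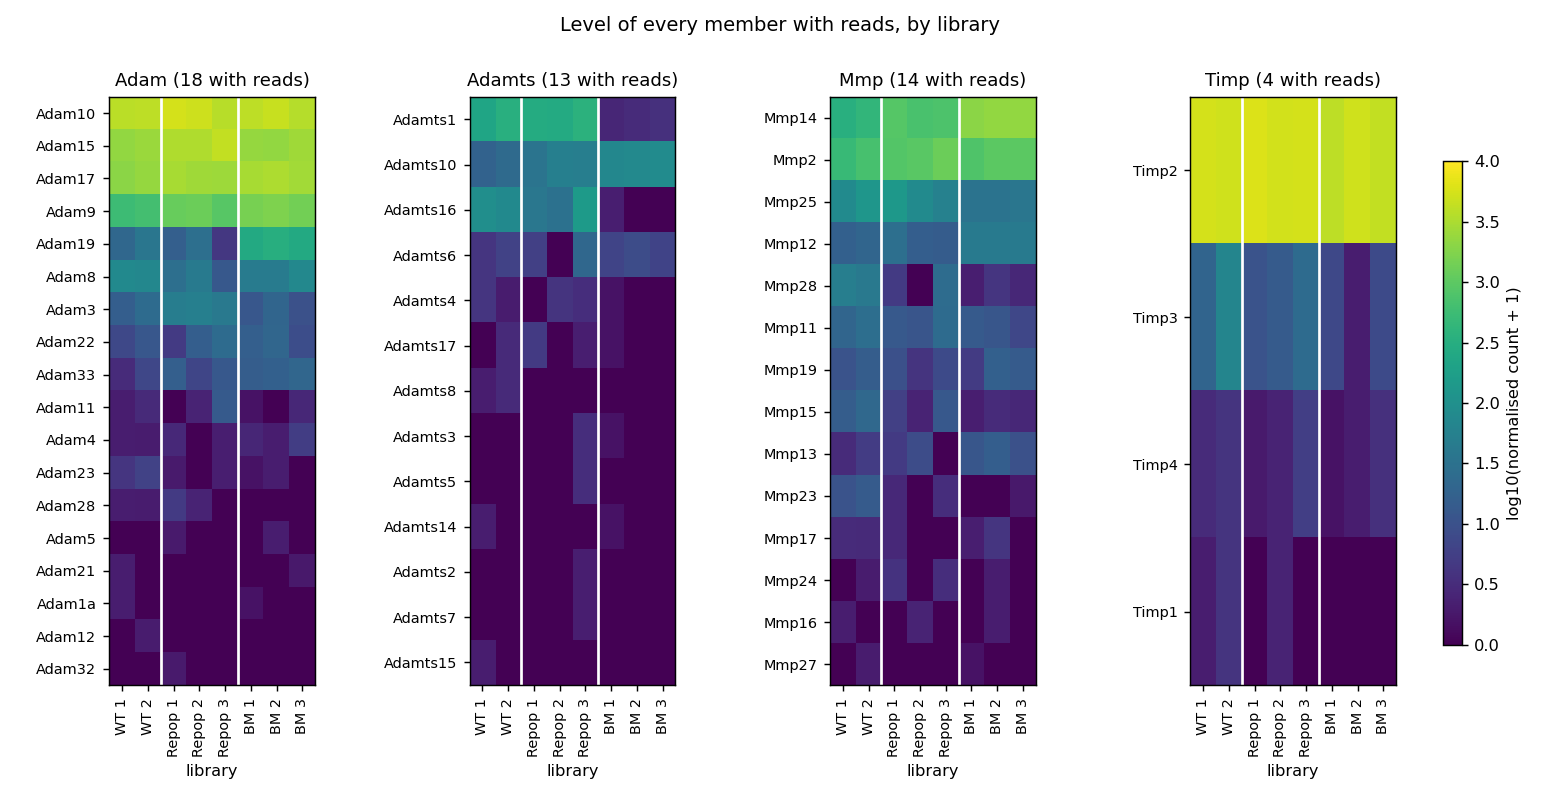
Level of the 49 genes with at least 1 read, as log10(normalised count + 1), by family (rows) and library (columns: wild-type, repopulating and macrophage). A few genes per family hold most of the counts, and Adamts1 and Adamts16 are near 0 in the 3 macrophage columns.

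Just 7 genes made up 96.3% of all counts: Timp2, Adam10, Adam15, Adam17, Mmp14, Adam9 and Mmp2. Per kilobase of annotated exon, Timp2 was highest in each population, with 1359 ± 52.8 normalised counts per kb in wild-type microglia (SD, n = 2), 1465 ± 121 in repopulating microglia (SD, n = 3) and 1144 ± 153 in macrophages (SD, n = 3). Adam10 came second per kb, with 809 ± 21.4, 963 ± 174 and 827 ± 90.4 in that order, and its libraries did not overlap those of Timp2 within a population. In wild-type microglia Adam15, Adam17, Mmp2, Adam9, Mmp14 and Adamts1 followed, and libraries overlapped between Mmp2 and Adam9 and between Mmp14 and Adamts1. Repopulating microglia had the same order, with overlap between Adam17 and Mmp2 and between Mmp2 and Adam9. In macrophages Adam17, Adam15, Adam9 and Mmp14 followed, each overlapping the next, then Mmp2 and Adam19, and Adamts1 was not among the top 10.

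Testing covered the 23 genes that reached 10 normalised counts in 2 or more libraries: 9 Adam, 3 Adamts, 9 Mmp and 2 Timp genes. They were part of one limma fit of 11415 genes on log2(normalised count + 1), a scale that understates the change of low genes, with Benjamini-Hochberg adjustment over all 11415 and a threshold of 0.05. Macrophages differed from wild-type microglia in 14 of the 23, 8 higher and 6 lower, or 60.9%, against 43.5% of all genes tested (21.3% higher and 22.2% lower). Repopulating microglia differed from macrophages in 9, 5 higher and 4 lower, or 39.1%, against 30.9% (16% higher and 14.9% lower). Repopulating microglia differed from wild type in 4, every one higher, or 17.4%, against 8.61% (4.86% higher and 3.75% lower). A gene silent in one population entered the tested set only through the others, and the comparisons share libraries, so these shares support nothing about the family. Median log2 differences of the 23 were 0.03, 0.14 and 0.11 in this order, beside -0.01, 0.00 and -0.02 over all tested genes. Without repopulating replicate 3 limma called 6992, 5335 and 2969 of 11322 genes, against 4960, 3526 and 983 of 11415 with all libraries. Among the 23 genes the numbers called were 16, 12 and 11 in that fit. Without wild-type replicate 1 they were 8, 8 and 0, and without wild-type replicate 2 9, 8 and 1.

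**Figure D2:**
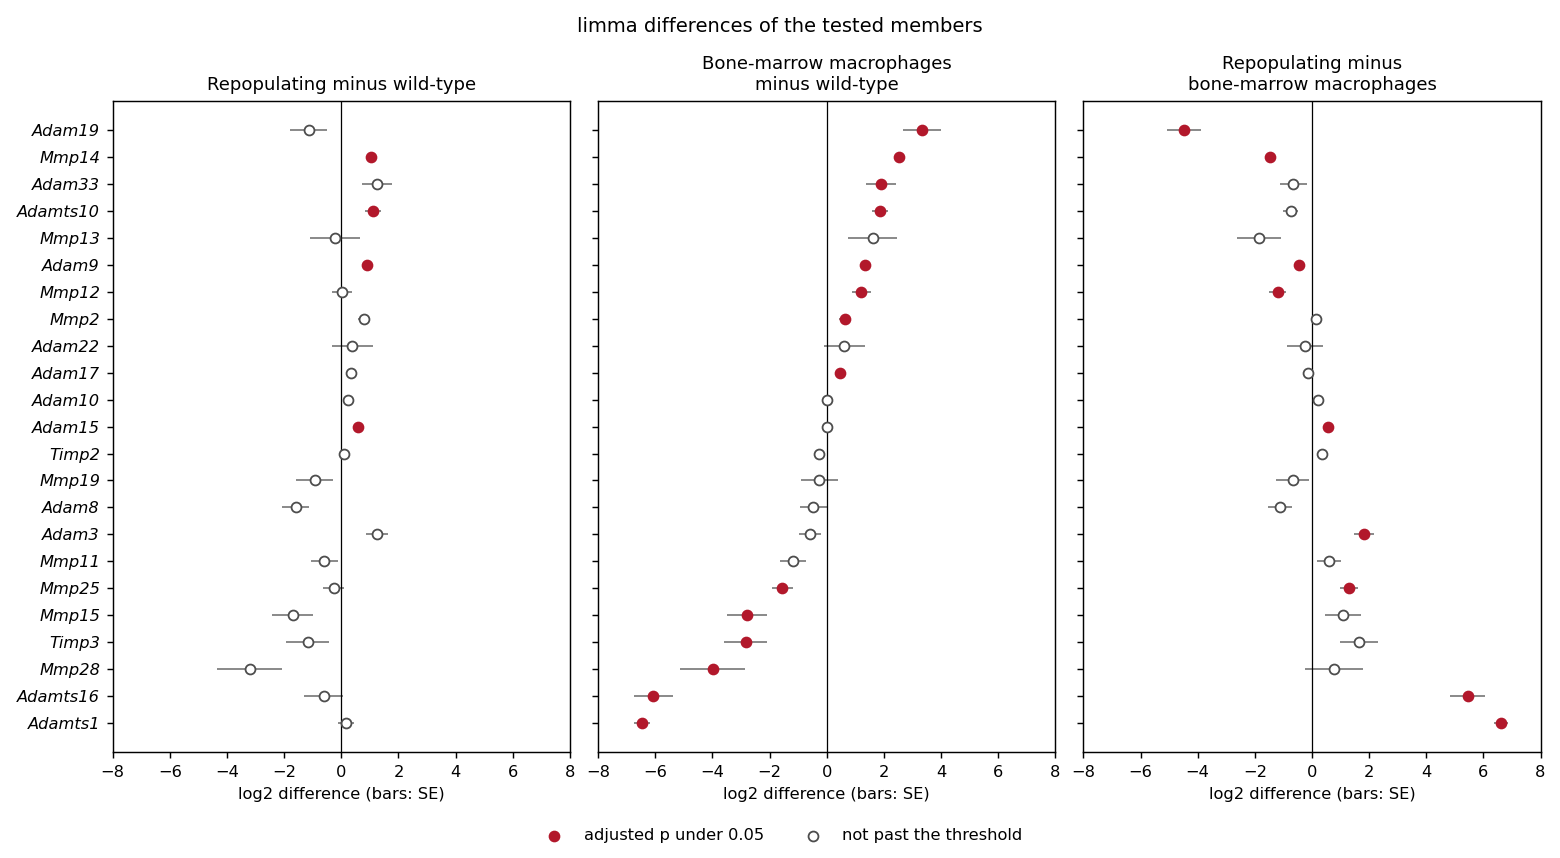
Log2 difference (limma, bars are SE) of the 23 tested genes in each of the 3 comparisons; filled points have an adjusted p under 0.05. Adamts1 and Adamts16 lie beyond 5 log2 units in both comparisons with macrophages. Between the microglia they lie at 0.16 and -0.62.

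Among the secreted ADAMTS proteases, Adamts1 and Adamts16 were present in both kinds of microglia and nearly absent from macrophages. Adamts1 cuts the proteoglycans aggrecan and versican (chr16:85793827-85803113, minus strand). Its normalised counts were 227 and 337 in wild-type libraries 1 and 2, 289, 275 and 369.7 in repopulating libraries 1 to 3 and 1.70, 2.12 and 2.65 in macrophage libraries 1 to 3. The microglial libraries overlapped each other and lay far above every macrophage library, where 3 libraries held 8 reads in all. Adamts1 was 88.4-fold lower in macrophages than in wild-type microglia on the fitted scale (log2 -6.47 ± 0.27, SE, limma adjusted p = 2.91e-06). Repopulating microglia exceeded macrophages by a log2 difference of 6.63 ± 0.24 (limma adjusted p = 1.16e-06). Between repopulating and wild-type microglia the difference was 0.16 ± 0.27 (limma adjusted p = 0.736).

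Adamts16, a related secreted protease (chr13:70727802-70841811, minus strand), had 94.0 and 77.3 counts in the wild-type and 37.8, 29.5 and 149 in the repopulating libraries. Macrophages had 2 reads, both in replicate 1. Per unit of depth, wild-type exceeded macrophage reads by a ratio of 164 (exact 95% interval 44.7 to 1365) and repopulating exceeded macrophage reads by 139 (exact 95% interval 38.0 to 1158), intervals that cover counting error only. Both differences passed (limma adjusted p = 0.000232 and 0.000290). Repopulating replicate 3 lay above both wild-type libraries, and replicates 1 and 2 lay below them. The difference between the microglia was -0.62 ± 0.68 (limma adjusted p = 0.593). Without repopulating replicate 3 it was -1.33 and did not pass (limma adjusted p = 0.0719). For Adamts1 and Adamts16, each call against macrophages held in all 19 alternatives. The summed levels of endothelial and astrocyte markers were also lowest in macrophages: 6 endothelial markers summed to 415 and 736 in wild-type, 239.9 to 609 in repopulating and 80.7 to 96.1 in macrophage libraries. Astrocyte markers (6 genes) summed to 1072 and 6441, 242 to 2140.1 and 70.5 to 106 in that order. Slc1a3 gave most of the microglial astrocyte sums, and without it the other 5 astrocyte markers summed to 84.4 and 76.3 in wild-type libraries 1 and 2, 90.7, 60.5 and 232 in repopulating libraries 1 to 3 and 53.4, 91.2 and 68.8 in macrophage libraries 1 to 3, which overlap. Single markers were not all lowest in macrophages: Gfap was at 14.8, 29.7 and 30.0 there against 21.4 and 13.2 in wild type, and endothelial Flt1 at 24.4, 49.8 and 39.7 against 23.5 and 33.6. The part of such cells in the Adamts1 and Adamts16 values was not tested.

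Promoter windows from RefSeq (GRCm38.p6, 250 bases before to 50 after a start) matched 48 of the 77 genes by symbol. The 4 printed here show the start region of Adamts1, on in microglia and near 0 in macrophages, and of Mmp14, Adam19 and Mmp13, whose mean levels were highest in macrophages. They lie at chr16:85803064-85803363 on the minus strand and at chr14:54431348-54431647, chr11:46055734-46056033 and chr9:7272264-7272563 on the plus strand. Capitals mark matches on either strand to the AP-1 motif TGAGTCA, the TATA box TATAAA, the GC box GGGCGG or the PU.1-type motif GAGGAAG.
Adamts1: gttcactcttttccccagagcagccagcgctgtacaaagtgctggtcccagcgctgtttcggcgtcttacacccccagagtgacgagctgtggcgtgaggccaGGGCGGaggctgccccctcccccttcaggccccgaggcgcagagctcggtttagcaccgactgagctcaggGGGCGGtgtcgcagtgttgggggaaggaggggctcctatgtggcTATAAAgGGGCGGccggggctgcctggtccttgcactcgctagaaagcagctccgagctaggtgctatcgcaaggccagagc
Mmp14: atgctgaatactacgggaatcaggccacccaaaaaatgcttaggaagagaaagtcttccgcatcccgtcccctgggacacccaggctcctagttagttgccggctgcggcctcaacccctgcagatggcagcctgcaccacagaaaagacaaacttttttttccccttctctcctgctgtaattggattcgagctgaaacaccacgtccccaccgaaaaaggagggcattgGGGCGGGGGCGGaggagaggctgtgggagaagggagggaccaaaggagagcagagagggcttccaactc
Adam19: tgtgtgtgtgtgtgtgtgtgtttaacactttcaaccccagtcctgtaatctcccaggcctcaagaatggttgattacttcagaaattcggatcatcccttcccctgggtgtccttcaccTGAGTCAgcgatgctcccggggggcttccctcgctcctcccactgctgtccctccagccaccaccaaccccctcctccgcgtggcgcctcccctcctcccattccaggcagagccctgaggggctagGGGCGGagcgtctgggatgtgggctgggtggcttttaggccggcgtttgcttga
Mmp13: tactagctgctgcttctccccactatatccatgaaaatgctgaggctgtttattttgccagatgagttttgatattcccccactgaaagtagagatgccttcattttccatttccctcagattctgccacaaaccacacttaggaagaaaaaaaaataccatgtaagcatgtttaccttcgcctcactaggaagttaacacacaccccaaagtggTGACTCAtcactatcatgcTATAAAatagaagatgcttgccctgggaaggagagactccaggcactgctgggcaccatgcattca
The Adamts1 window holds a TATA box 32 bases before the start and 3 GC boxes, the nearest of them just after the TATA box. The Mmp14 window has 2 neighbouring GC boxes, and no TATA box was found in it. AP-1 matches stand 131 bases before the start of Adam19 and 35 before that of Mmp13, where a TATA box follows. Mmp12, the neighbour of Mmp13, has 2 windows, and the one whose start lies 2993 bases inside the annotated gene holds an AP-1 match and a TATA box. The other, whose start lies 16 bases from the annotated one, holds a PU.1-type match. Of all 32851 promoter windows, 5.20% hold the AP-1 motif, 13.6% the TATA box, 35.7% the GC box and 13.6% the PU.1-type motif. Of the 53 windows of the 48 genes, 18.9%, 24.5%, 43.4% and 15.1% do. Their AP-1 matches lay in Adam1b, Adam19, Adam29 and, in the chromosome 9 cluster, Mmp1a, Mmp1b, Mmp3, Mmp7, Mmp10, Mmp12 and Mmp13. All of these but Adam19, Mmp12 and Mmp13 had no read in any library. A match of letters is a description and not a binding site.

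Adam19 and Mmp14 had the clearest macrophage excess. Adam19, a membrane sheddase of neuregulins (chr11:46055992-46147343, plus strand), had 266, 325 and 268 counts in macrophage libraries 1 to 3, against 20.3 and 36.6 in wild-type and 15.1, 28.0 and 3.46 in repopulating libraries. Every macrophage library lay above every microglial one. Macrophages exceeded wild type 10.1-fold (log2 3.34 ± 0.66, SE, limma adjusted p = 0.00419), and repopulating microglia were 22.4-fold lower than macrophages (log2 -4.48 ± 0.59, limma adjusted p = 0.000688). Each call held in all 19 alternatives. Repopulating and wild-type libraries overlapped (log2 -1.15 ± 0.66, limma adjusted p = 0.304). The antisense genes Gm16033 and Gm16034 share exon bases with Adam19, and without strand their reads cannot be told apart.

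Mmp14, also called MT1-MMP, is a membrane-bound collagenase that activates the proenzyme of Mmp2 (chr14:54431612-54445364, plus strand). Macrophage libraries held 2032, 2228 and 2261 counts, repopulating libraries 865, 716 and 762 and wild-type libraries 337 and 424. The populations did not overlap, and repopulating microglia lay between the others. Macrophages exceeded wild type 5.73-fold (log2 2.52 ± 0.15, SE, limma adjusted p = 1.57e-05), and repopulating microglia were lower than macrophages (log2 -1.48 ± 0.13, limma adjusted p = 9.33e-05). These 2 calls held in all 19 alternatives each. Repopulating microglia exceeded wild type 2.06-fold (log2 1.04 ± 0.15, limma adjusted p = 0.00668), a call that ended without wild-type replicate 1 (log2 0.88, adjusted p = 0.0933) and with only these 2 groups in the fit (log2 1.04, adjusted p = 0.0704). Markers of border-associated macrophages (5 genes) summed to 5269.6 to 6457 in macrophages, 324 to 934 in repopulating and 354 and 607 in wild-type libraries. Mrc1 (3645, 4909 and 3706) and Pf4 (1517, 1390 and 1527) gave most of the macrophage sums, and Cbr2 was also highest there. Cd163 was not, at 16.5, 23.3 and 23.8 in macrophages against 25.6 and 63.0 in wild type. Nor was Lyve1, at 4.55, 9.55 and 5.29 against 7.48 and 17.3. The part of such cells in the values of Adam19 and Mmp14 was not tested.

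Adam9 and Adamts10 had the same order of populations as Mmp14. Adam9, a widely expressed membrane sheddase (chr8:24949611-25016927, minus strand), had 1487, 1661 and 1427 counts in macrophages, 1156, 1271 and 924 in repopulating and 555 and 639.5 in wild-type libraries, with no overlap. Macrophages exceeded wild type by 1.35 ± 0.16 (SE, limma adjusted p = 0.000341), which held in all 19 alternatives. Repopulating microglia exceeded wild type 1.86-fold (log2 0.89 ± 0.16, limma adjusted p = 0.0159), a call that ended with only these groups in the fit (adjusted p = 0.0977) and without repopulating replicate 1 (log2 0.86, adjusted p = 0.0508), wild-type replicate 1 (log2 0.79, adjusted p = 0.163) or wild-type replicate 2 (log2 1.0, adjusted p = 0.0775). They were lower than macrophages (log2 -0.46 ± 0.15, limma adjusted p = 0.0424). This call ended in 9 of 19 alternatives: with no filter (adjusted p = 0.0531), no variance trend (0.0739) or only these groups in the fit (0.0625), and without macrophage replicate 1 (log2 -0.48, adjusted p = 0.112), macrophage replicate 2 (log2 -0.40, adjusted p = 0.145), macrophage replicate 3 (log2 -0.51, adjusted p = 0.0817), repopulating replicate 1 (log2 -0.49, adjusted p = 0.0807), wild-type replicate 1 (log2 -0.46, adjusted p = 0.0625) or wild-type replicate 2 (log2 -0.46, adjusted p = 0.0620).

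Adamts10, which acts on fibrillin microfibrils (chr17:33524204-33553782, plus strand), had 71.0, 74.2 and 82.9 counts in macrophages, 33.1, 53.1 and 50.7 in repopulating and 17.1 and 23.4 in wild-type libraries, again with no overlap. Macrophages exceeded wild type by 1.87 ± 0.28 (SE, limma adjusted p = 0.00104), which held in all 19 alternatives. Repopulating microglia exceeded wild type by 1.12 ± 0.28 (limma adjusted p = 0.0439). This call ended in 11 of 19 alternatives, among them edgeR (adjusted p = 0.0517), no filter (0.0706), equal totals (0.0692), only these groups in the fit (0.197) and the fits without macrophage replicate 1 (log2 1.12, adjusted p = 0.0915), macrophage replicate 2 (log2 1.12, adjusted p = 0.0873), macrophage replicate 3 (log2 1.12, adjusted p = 0.0844), repopulating replicate 2 (log2 1.0, adjusted p = 0.0836), wild-type replicate 1 (log2 0.91, adjusted p = 0.291) or wild-type replicate 2 (log2 1.34, adjusted p = 0.118). The difference between repopulating microglia and macrophages was -0.75 ± 0.25 and missed the threshold (limma adjusted p = 0.0506), but passed in 9 of 19 alternatives. Among them were edgeR (adjusted p = 0.0380), DESeq2 (0.0442), TMM scaling (0.0431), equal totals (0.0203), a pseudocount of 10 (0.0385) and no variance trend (0.0384). It also passed without repopulating replicate 2 (log2 -0.87, adjusted p = 0.0436) or repopulating replicate 3 (log2 -0.84, adjusted p = 0.0202).

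**Figure D3:**
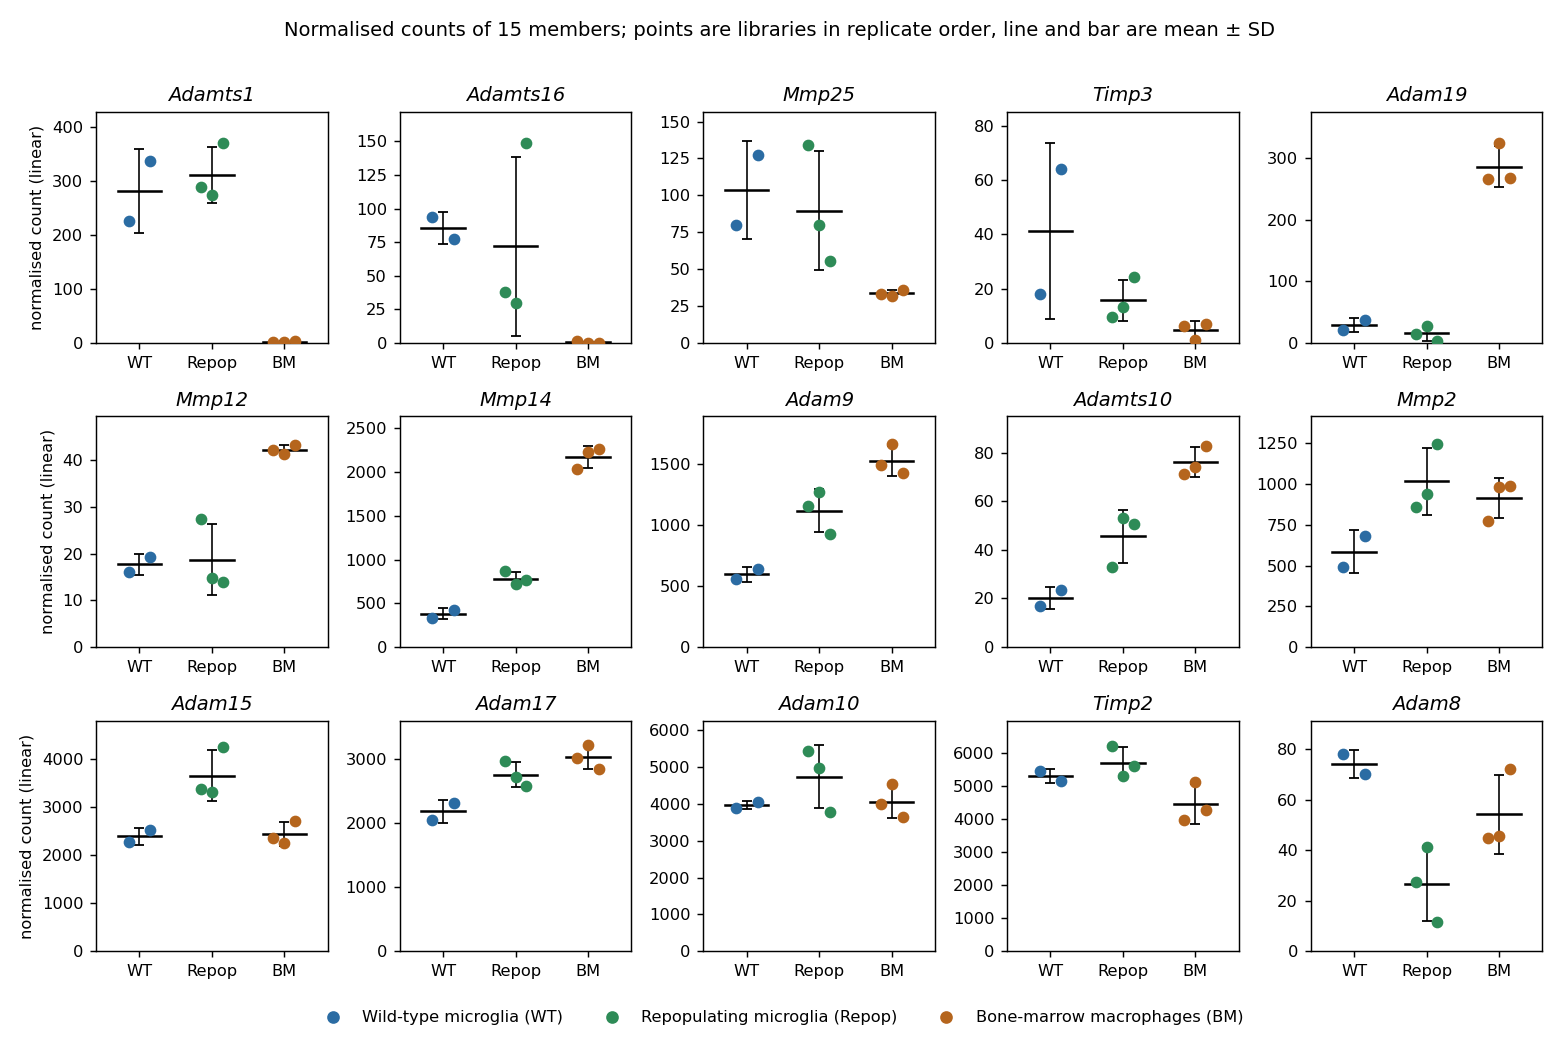
Normalised counts (linear axes from 0) of 15 genes in each library, with the mean and SD of the wild-type, repopulating and macrophage libraries. Mmp14, Adam9 and Adamts10 step up from wild-type to repopulating to macrophage libraries without overlap, and Adam15 is highest in repopulating libraries.

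Mmp2, or gelatinase A, degrades collagen IV. It had 493 and 679 counts in the wild-type, 862, 940.1 and 1247 in the repopulating and 777, 981 and 989 in the macrophage libraries. Wild-type libraries lay below all others, and the other populations overlapped. Mmp2 was higher in macrophages than in wild type by 0.65 ± 0.21 (SE, limma adjusted p = 0.0338), a call that ended with no variance trend (adjusted p = 0.0576) and without macrophage replicate 2 (log2 0.60, adjusted p = 0.0980), macrophage replicate 3 (log2 0.59, adjusted p = 0.102) or wild-type replicate 1 (log2 0.42, adjusted p = 0.255). Repopulating over wild-type microglia gave 0.79 ± 0.21, which did not pass (limma adjusted p = 0.0519) but did with DESeq2 (adjusted p = 0.0129), a pseudocount of 10 (0.0498) and without repopulating replicate 3 (log2 0.64, adjusted p = 0.0137).

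Timp2 blocks several MMPs and also links pro-Mmp2 to Mmp14 at the membrane, so these transcripts are described together. Timp2 (chr11:118301069-118355740, minus strand) had 5439.7 and 5149 counts in the wild-type, 6222, 5295 and 5602 in the repopulating and 3985, 5128 and 4259 in the macrophage libraries. Macrophages lay just below the microglial libraries, and no comparison passed: limma adjusted p was 0.684 for repopulating against wild-type microglia, 0.194 for macrophages against wild type and 0.0722 for repopulating microglia against macrophages. The last difference, 0.36 ± 0.13 (SE), passed with DESeq2 (adjusted p = 0.0409) and without repopulating replicate 3 (log2 0.37, adjusted p = 0.0260). Per kilobase, the ratio of Mmp14 to Timp2 was 0.0404 and 0.0538 in the wild-type, 0.0909, 0.0884 and 0.0890 in the repopulating and 0.333, 0.284 and 0.347 in the macrophage libraries. This ratio separated the populations with no overlap. The ratio of Mmp2 to Timp2 was 0.105 and 0.152, 0.160, 0.205 and 0.257, and 0.225, 0.221 and 0.268 in that order, where repopulating and macrophage libraries overlapped. Both ratios are descriptions, with no test.

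**Figure D4:**
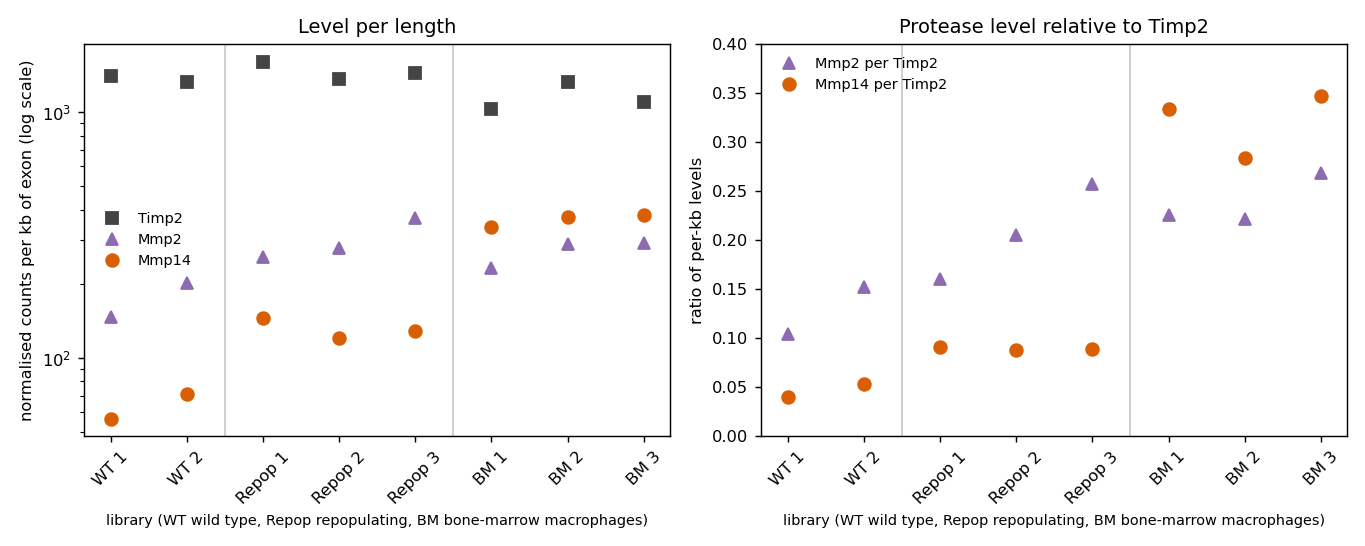
Left, normalised counts per kb of exon (log axis) of Timp2, Mmp2 and Mmp14 in each library; right, the ratio of Mmp2 and of Mmp14 to Timp2 per library. The Mmp14 ratio is 0.0404 and 0.0538 in wild-type libraries and 0.333, 0.284 and 0.347 in macrophage libraries.

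The other inhibitors were scarce. Timp1, the inducible member of the family, had 4 reads in wild-type microglia, 1 in repopulating microglia and 0 in macrophages. Timp4 had 5, 6 and 5 in that order. Timp3 binds to matrix and inhibits Adam17 and several ADAMTS enzymes. It had 18.2 and 64.1 counts in the wild-type, 9.44, 13.3 and 24.2 in the repopulating and 6.25, 1.06 and 7.05 in the macrophage libraries. The wild-type libraries were far apart, and replicate 1 lay within the repopulating range. Macrophages lay below all microglial libraries (log2 -2.84 ± 0.75 against wild type, SE, limma adjusted p = 0.0153), a call that ended without wild-type replicate 2 (log2 -1.96, adjusted p = 0.148). That library also had the highest Slc1a3 (6365 against 987 in replicate 1) and the highest Cldn5, an endothelial marker (123 against 54.5). The astrocyte markers Gfap (13.2 against 21.4) and Slc1a2 (34.6 against 48.1) were lower in it than in replicate 1, and the part of such cells in the Timp3 value was not tested. Timp3 and Timp4 share exon bases with Syn3 and Syn2 on the opposite strand.

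Adam10, the constitutive alpha-secretase and Notch sheddase (chr9:70678997-70780229, plus strand), overlapped between all populations. It had 3898 and 4047 counts in the wild-type, 5438, 4979.6 and 3780.2 in the repopulating and 4006, 4532 and 3649 in the macrophage libraries. No comparison passed, with limma adjusted p = 0.427 for repopulating against wild-type microglia, 0.913 for macrophages against wild type and 0.358 for repopulating microglia against macrophages. Repopulating replicate 3 was the lowest of its group. Adam10 passed against wild type without repopulating replicate 3 (log2 0.39, adjusted p = 0.0337), and against macrophages without repopulating replicate 3 (log2 0.36, adjusted p = 0.0176).

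Adam17, or TACE, releases TNF from the membrane (chr12:21323509-21373632, minus strand). It had 2048 and 2307 counts in the wild-type, 2962, 2709.7 and 2578 in the repopulating and 3014, 3203 and 2833 in the macrophage libraries. Wild-type libraries were lowest, and the other populations overlapped. Adam17 was higher in macrophages than in wild type by 0.47 ± 0.13 (SE, limma adjusted p = 0.0176), a call that ended without macrophage replicate 1 (log2 0.47, adjusted p = 0.0591), macrophage replicate 2 (log2 0.43, adjusted p = 0.0628) or wild-type replicate 1 (log2 0.38, adjusted p = 0.140). Repopulating over wild-type microglia gave 0.34 ± 0.13 (limma adjusted p = 0.141), and passed without repopulating replicate 3 (log2 0.38, adjusted p = 0.0276). Repopulating microglia against macrophages did not pass (limma adjusted p = 0.419) but did with libraries scaled to equal totals (adjusted p = 0.0238). Iah1 overlaps Adam17 exons on the opposite strand.

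Adam15, a sheddase with an integrin-binding motif (chr3:89338542-89349996, minus strand), was highest in repopulating microglia. Repopulating libraries held 3388, 3313 and 4262 counts, wild-type libraries 2271 and 2524 and macrophage libraries 2358, 2258 and 2719.5. Each repopulating library lay above all others, and replicate 3 was the highest. Repopulating microglia exceeded macrophages 1.49-fold (log2 0.57 ± 0.14, SE, limma adjusted p = 0.0140), a call that ended with libraries scaled to equal totals (log2 0.32, adjusted p = 0.151) and without macrophage replicate 1 (log2 0.55, adjusted p = 0.0631) or macrophage replicate 2 (log2 0.52, adjusted p = 0.0614). They exceeded wild type 1.52-fold (log2 0.60 ± 0.16, limma adjusted p = 0.0489). This call ended in 14 of 19 alternatives, among them the fits without macrophage replicate 1 (log2 0.60, adjusted p = 0.100), macrophage replicate 2 (log2 0.60, adjusted p = 0.0869), macrophage replicate 3 (log2 0.60, adjusted p = 0.0768), repopulating replicate 1 (log2 0.65, adjusted p = 0.0838), repopulating replicate 2 (log2 0.67, adjusted p = 0.0516), wild-type replicate 1 (log2 0.52, adjusted p = 0.311) or wild-type replicate 2 (log2 0.68, adjusted p = 0.167). Without repopulating replicate 3 it held (log2 0.48, adjusted p = 0.0102). The gene 4731419I09Rik shares exon bases with Adam15 on the opposite strand.

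Adam8 and Mmp25 are made by leukocytes, neutrophils among them. Adam8, a sheddase, had 78.0 and 70.2 counts in the wild-type, 27.4, 41.3 and 11.5 in the repopulating and 44.9, 45.6 and 72.3 in the macrophage libraries. Repopulating libraries lay below all others, but neither difference passed. Against wild type it was -1.60 ± 0.47 (SE, limma adjusted p = 0.0736), which passed with DESeq2 (adjusted p = 0.0223), equal totals (0.0471) and without repopulating replicate 2 (log2 -1.99, adjusted p = 0.0328) or repopulating replicate 3 (log2 -1.11, adjusted p = 0.0166). Against macrophages it was -1.13 ± 0.42 (limma adjusted p = 0.0760), which passed with equal totals (adjusted p = 0.0276) and without repopulating replicate 2 (log2 -1.52, adjusted p = 0.0195). Mmp25, a membrane-anchored MMP also known as leukolysin (chr17:23628311-23645277, minus strand), had 80.1 and 127 counts in the wild-type, 134, 79.7 and 55.3 in the repopulating and 33.0, 31.8 and 36.2 in the macrophage libraries. Macrophages were lowest, at -1.56 ± 0.36 against wild type (SE, limma adjusted p = 0.00894), a call that ended without wild-type replicate 2 (log2 -1.23, adjusted p = 0.0863). Repopulating microglia exceeded them by 1.30 ± 0.33 (limma adjusted p = 0.0163), a call that ended without macrophage replicate 1 (log2 1.28, adjusted p = 0.0568) or macrophage replicate 2 (log2 1.26, adjusted p = 0.0572). The part of neutrophils or monocytes in the Adam8 and Mmp25 values was not tested. Gm16201 shares exon bases with Adam8 on the opposite strand.

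Of the Mmp genes selected in the chromosome 9 cluster, Mmp12 and Mmp13 were testable. Mmp13 met the filter through macrophage libraries alone, which fixed in advance that macrophages would be highest for it. Mmp12, macrophage elastase (chr9:7344381-7369499, plus strand), had 42.1, 41.4 and 43.2 counts in macrophages, 16.0 and 19.3 in wild-type and 27.4, 14.8 and 13.8 in repopulating libraries. Macrophages lay above both kinds of microglia, which overlapped. The difference from wild type was 1.22 ± 0.34 (SE, limma adjusted p = 0.0201), a call that ended without macrophage replicate 1 (log2 1.22, adjusted p = 0.0618), macrophage replicate 2 (log2 1.23, adjusted p = 0.0544), macrophage replicate 3 (log2 1.20, adjusted p = 0.0624), wild-type replicate 1 (log2 1.09, adjusted p = 0.117) or wild-type replicate 2 (log2 1.34, adjusted p = 0.0648). Repopulating microglia were lower than macrophages (log2 -1.20 ± 0.31, limma adjusted p = 0.0176), a call that ended without macrophage replicate 1 (log2 -1.20, adjusted p = 0.0672), macrophage replicate 2 (log2 -1.22, adjusted p = 0.0576) or macrophage replicate 3 (log2 -1.18, adjusted p = 0.0655). Mmp12 shares exon bases with Mmp1b on the opposite strand. Mmp13, collagenase 3 (chr9:7272514-7283331, plus strand), had 10.8, 14.8 and 8.82 counts in macrophages, 2.14 and 4.07 in wild-type and 3.78, 7.38 and 0 in repopulating libraries. Its macrophage libraries lay above all others, but no comparison passed, with limma adjusted p = 0.155 for macrophages against wild type and 0.104 for repopulating microglia against macrophages. The first passed with only these groups in the fit (adjusted p = 0.0115) and without repopulating replicate 3 (log2 1.62, adjusted p = 0.0167), the second without repopulating replicate 2 (log2 -2.49, adjusted p = 0.0362).

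Another 4 genes passed in a comparison with every group mean under 50 normalised counts, and they are named after their values were seen. Adam3, a protein of sperm, had 48.2, 53.1 and 40.3 counts in repopulating, 15.0 and 24.4 in wild-type and 11.4, 19.1 and 8.82 in macrophage libraries, with repopulating libraries above all others. It exceeded macrophages by 1.83 ± 0.34 (SE, limma adjusted p = 0.00420) and did so in all 18 alternatives that tested it. The difference from wild type, 1.25 ± 0.39, did not pass (limma adjusted p = 0.0810), but did without repopulating replicate 3 (log2 1.36, adjusted p = 0.0277). The antisense gene Gm45528 overlaps Adam3 exons, so the source of these reads cannot be told apart.

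Adam33 had 14.2, 15.9 and 20.3 counts in macrophages, 15.1, 5.90 and 11.5 in repopulating and 2.14 and 6.10 in wild-type libraries. Adam33 was higher in macrophages than in wild type by 1.90 ± 0.53 (SE, limma adjusted p = 0.0188), a call that ended without macrophage replicate 2 (log2 1.93, adjusted p = 0.0507), macrophage replicate 3 (log2 1.76, adjusted p = 0.0682) or wild-type replicate 1 (log2 1.31, adjusted p = 0.148). Mmp28, or epilysin, had 50.2 and 40.7 counts in wild-type, 3.78, 0 and 25.3 in repopulating and 1.14, 3.18 and 1.76 in macrophage libraries. Mmp15, a membrane-type MMP, had 13.9 and 21.4, 4.72, 1.48 and 11.5, and 1.14, 2.12 and 1.76 in that order. Wild-type libraries were highest for both. Mmp28 was lower in macrophages than in wild type (log2 -3.99 ± 1.13, SE, limma adjusted p = 0.0207), a call that ended without macrophage replicate 1 (log2 -3.76, adjusted p = 0.0605), macrophage replicate 3 (log2 -3.95, adjusted p = 0.0584), wild-type replicate 1 (log2 -3.84, adjusted p = 0.115) or wild-type replicate 2 (log2 -4.14, adjusted p = 0.0905). Mmp15 was lower too (log2 -2.79 ± 0.71, limma adjusted p = 0.0130), a call that ended without wild-type replicate 1 (log2 -3.08, adjusted p = 0.0569) or wild-type replicate 2 (log2 -2.50, adjusted p = 0.102). In repopulating against wild-type microglia Mmp28 was at -3.20 ± 1.13 and Mmp15 at -1.70 ± 0.71, and neither passed (limma adjusted p = 0.117 and 0.171). Mmp28 passed without repopulating replicate 3 (log2 -4.40, adjusted p = 0.00111), and Mmp15 without repopulating replicate 3 (log2 -2.28, adjusted p = 0.0257). The gene 1700020L24Rik shares exon bases with Mmp28 on the opposite strand.

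Of the remaining tested genes, Adam22, a catalytically inactive ADAM of synapses, and the MMPs Mmp11 and Mmp19 passed in no comparison. Mmp11 was lower in macrophages than in wild type (log2 -1.18, limma adjusted p = 0.0704) and passed without repopulating replicate 3 (log2 -1.18, adjusted p = 0.0230) and with only these groups in the fit (adjusted p = 0.0211). Group means of these 3 genes ran from 6.12 (Mmp19 in repopulating microglia) to 22.8 (Mmp11 in wild-type microglia). Mmp11 shares exon bases with Chchd10 on the opposite strand, and Mmp19 with Gm47093 and Tmem198b. Mmp23 did not reach the level for testing: it had 22 reads in wild-type microglia, 4 in repopulating microglia and 1 in macrophages, a ratio of wild type to macrophages per unit of depth of 44.0 (exact 95% interval 7.11 to 1815). The aggrecanases Adamts4 and Adamts5 had at most 3.21 and 2.30 normalised counts in any library.

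Of 17 genes that activate or mature these proteases, 13 were tested. In macrophages 4 higher and 6 lower than in wild type were called (median log2 -0.16), and in repopulating against wild-type microglia 1 higher and 0 lower (median -0.093). Over all tested genes 43.5% and 8.61% were called in these comparisons (medians -0.0069 and -0.016). Without repopulating replicate 3 the counts were 5 higher and 5 lower, and 3 higher and 4 lower. Without wild-type replicate 2 they were 2 higher and 4 lower, and 0 and 0 by limma (2 at an unadjusted p under 0.05), and without wild-type replicate 1 they were 3 higher and 4 lower, and 0 and 0 by limma (3 at an unadjusted p under 0.05). In repopulating microglia against macrophages 5 higher and 3 lower were called, from 3 higher and 2 lower without macrophage replicate 2 to 5 higher and 6 lower without repopulating replicate 3; without repopulating replicate 1 the count was 3 higher and 3 lower. Between repopulating microglia and macrophages, 30.9% of all tested genes were called (median 0.0041). Rhbdf2 encodes iRhom2, which carries Adam17 to the cell surface. It was at 141 ± 13.5 in wild-type microglia (SD, n = 2), 285 ± 14.7 in repopulating microglia (SD, n = 3) and 381 ± 47.0 in macrophages (SD, n = 3). It exceeded wild type by 1.01 in repopulating microglia and by 1.43 in macrophages (log2, limma adjusted p = 0.00920 and 0.000211). The first call ended without wild-type replicate 1 (log2 0.92, adjusted p = 0.110) or 2 (log2 1.11, adjusted p = 0.0553). Plau, the urokinase that generates plasmin, was at 3254 ± 151 in macrophages and 916 ± 52.8 in wild-type microglia (log2 1.83, limma adjusted p = 1.81e-05). Tspan14, a tetraspanin partner of Adam10, was at 1828 ± 29.7 and 5751 ± 5.96 (log2 -1.65, limma adjusted p = 3.13e-05).

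Of 12 other genes that inhibit or clear these or related proteases, 8 were tested. In macrophages 2 higher and 5 lower than in wild type were called (median log2 -1.65), and in repopulating microglia against macrophages 6 higher and 0 lower (median 2.18). Over all tested genes 43.5% were called in the first comparison (median -0.0069) and 30.9% in the second (median 0.0041). Without repopulating replicate 3 the counts were 2 higher and 5 lower, and 7 higher and 1 lower. For macrophages against wild type they were 0 higher and 5 lower without wild-type replicate 1, 1 higher and 3 lower without wild-type replicate 2, and 1 higher and 4 or 5 lower without any 1 macrophage library. In repopulating against wild-type microglia 2 higher and 2 lower were called (median 0.34), and 0 by limma without either wild-type library or repopulating replicate 1 (4 or 5 at an unadjusted p under 0.05). Without any 1 macrophage library 1 higher and 0 lower were called. With all libraries, 8.61% of all tested genes were called between repopulating and wild-type microglia (median -0.016). Reck, a membrane inhibitor of several MMPs, was at 4.93 ± 1.96 in macrophages and 28.7 ± 3.22 in wild-type microglia (log2 -2.37, limma adjusted p = 0.00355). Serpine2, an inhibitor of plasminogen activators and thrombin, was at 62.3 ± 3.34 and 5733 ± 284 (log2 -6.50, limma adjusted p = 1.65e-05).

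Of 20 membrane proteins cut by Adam10 or Adam17, 17 were tested. In macrophages 3 higher and 9 lower than in wild type were called (median log2 -0.81), where 43.5% of all tested genes were called. Without repopulating replicate 3 these were 6 higher and 9 lower. In repopulating microglia against macrophages 9 higher and 1 lower were called (median 0.68), where 30.9% of all tested genes were called. These were 9 higher and 4 lower without repopulating replicate 3, 9 higher and 2 lower without repopulating replicate 2, and 9 higher and 0 lower without any 1 macrophage library. The lower one, named after its value was seen, was the chemokine Cxcl16 (1746 ± 692 in repopulating microglia and 3270 ± 170 in macrophages, log2 -1.0, limma adjusted p = 0.0264). Tgfa, a growth factor released by Adam17, was at 17.9 ± 8.10 in macrophages and 1195 ± 57.4 in wild-type microglia (log2 -6.09, limma adjusted p = 2.53e-05). App, the amyloid precursor protein, was higher in repopulating (3691 ± 152) than in wild-type microglia (1815 ± 227, log2 1.03, limma adjusted p = 0.00452), a call that ended without wild-type replicate 1 (log2 0.90, adjusted p = 0.0771).

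Of 7 AP-1 factors, which bind the AP-1 motif marked in the promoters, 6 were tested. In macrophages 0 higher and 4 lower than in wild type were called (median log2 -1.48), in repopulating microglia against macrophages 5 higher and 0 lower (median 2.00) and in repopulating against wild-type microglia 0 higher and 0 lower (median 0.34) by limma (1 at an unadjusted p under 0.05, 0 by edgeR and 1 higher by DESeq2). Without repopulating replicate 3 these were 0 higher and 5 lower, 6 higher and 0 lower, and 2 higher and 0 lower. Without wild-type replicate 2 the first was 0 higher and 2 lower, and without macrophage replicate 1 the last was 1 higher and 0 lower. Of all tested genes, limma called 43.5%, 30.9% and 8.61% in these comparisons, in the order given (medians -0.0069, 0.0041 and -0.016). Junb was at 14319 ± 2239.9 in repopulating microglia and 3254 ± 1106 in macrophages (log2 2.19, limma adjusted p = 0.000333).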

How the data were processed

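RNA from 8 mouse libraries was sequenced after a TruSeq RNA v2 preparation, per the labels' protocols. The submitters' processing notes name DESeq 1.14.0, HTSeq, Bowtie2 2.1.0.0 and TopHat2 2.0.10, with mm10 as the build and no roles; annotation and strand setting were not stated. The authors deposited a signal, gene counts that were each divided by a factor of their library, judging from the values. All values (100%, within 0.01 reads) were whole multiples of the smallest one in their library, and these whole reads entered the count tests.

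Groups came from sample titles, and columns were matched by name and replicate number, the macrophage columns by exclusion. Genes reaching 10 normalised counts in 2 libraries (11415 genes, 99.9% of reads) were fitted over all 8 libraries with limma 3.58.1 (R 4.3.3) on log2(value + 1) with a variance trend. edgeR 4.0.16 and DESeq2 1.42.0 served as alternatives, and edgeR called 969, 5040 and 3568 genes where limma called 983, 4960 and 3526 (repopulating against wild-type microglia, macrophages against wild type, repopulating microglia against macrophages). On simulated data in that order (fits of 11209, 11230 and 11230 genes), 90%, 88% and 97% of 4-fold and 33%, 34% and 51% of 2-fold changes were recovered. Of the calls made, 6.11%, 5.43% and 7.45% were false. The changes were placed in few genes, all with a mean of at least 50 counts. The rates therefore do not cover lower genes, or comparisons in which many genes differ. Replicates differed by more than sampling noise.

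The genes, lists and alternatives were chosen with earlier results of these data known. Named with values were genes past the threshold with a mean of at least 50 in a group, the 3 highest of each family and 16 genes listed by name; of each pathway list, up to 3 by smallest adjusted p in a comparison were eligible. Loci are 1-based, from GENCODE vM21 (GRCm38, the build also called mm10). Exon length is the union of annotated exons, which can exceed the expressed length. Alternatives were pseudocounts of 0.5 and 10, filters of none and 50 counts, equal-total and TMM scaling, a fit of the groups compared, a replicate block, no variance trend, the count tests and leaving out each library. Leaving out libraries for the pathway lists was added after seeing the data. One result of the list of membrane proteins is not reported here.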

Additional observations from a re-analysis of the deposited data

How the results depend on the processing

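The number of these genes called by limma between repopulating and wild-type microglia (4) was 0 with only those groups in the limma fit (8 at an unadjusted p under 0.05), 2 with edgeR and 6 with DESeq2. Without 1 library it was 0 to 11, the lowest without wild-type replicate 1 (5 at an unadjusted p under 0.05) and the highest without repopulating replicate 3. Between macrophages and wild type (14) it was 9 with the filter of 50 counts, which tests 13 of the genes, and 8 to 16 without 1 library. Between repopulating microglia and macrophages (9) it was 5 to 12 without 1 library. With the replicate block the counts were 3, 14 and 10. The block ended or gave a call for Adam15 (repopulating against wild-type, ended, log2 0.50, adjusted p = 0.0696), Adam33 (macrophages against wild-type, ended, log2 1.79, adjusted p = 0.0502), Adamts10 (repopulating against macrophages, given, log2 -0.75, adjusted p = 0.0469), Adamts10 (repopulating against wild-type, ended, log2 1.04, adjusted p = 0.0684), Mmp13 (macrophages against wild-type, given, log2 2.14, adjusted p = 0.0478) and Mmp2 (repopulating against wild-type, given, log2 0.69, adjusted p = 0.0452). Replicate numbers do not pair the libraries by the labels, and same-numbered deviations correlated at -0.00146, -0.0113, -0.0459, -0.0850 and 0.133. Deviations of different numbers correlated at -0.139 to 0.149. In the comparisons with wild type, centring on 2 shared numbers makes the values of different numbers the exact opposite. These correlations therefore do not decide whether libraries are paired. Without a filter, Adam23 and Timp1 also passed for macrophages against wild type, and Adamts8 and Mmp23 for both other populations. Each was lower than in wild-type microglia. Over all 8 libraries they held 12, 5, 3 and 27 reads in that order. Counts over all genes moved by more than 1.5 times as follows: repopulating against wild-type microglia (983) 82 with only the groups compared, 1625 with DESeq2, 491 without macrophage replicate 1, 522 without macrophage replicate 2, 526 without macrophage replicate 3, 67 without wild-type replicate 1, 144 without wild-type replicate 2, 468 without repopulating replicate 1 and 2969 without repopulating replicate 3; macrophages against wild type (4960) 2821 without wild-type replicate 1 and 3004 without wild-type replicate 2; repopulating microglia against macrophages (3526) 2212 without macrophage replicate 1, 2326 without macrophage replicate 3 and 5335 without repopulating replicate 3. Scaling to equal totals moved the median log2 difference of all genes to -0.13, 0.14 and -0.25 and the split of higher to lower calls to 440 against 729, 3007 against 2068 and 1169 against 2934, from 555 against 428, 2428 against 2532 and 1826 against 1700.

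Of 1163 results for single genes, 1035 kept their direction and side of the threshold, 72 lost and 32 gained a call, and 24 changed sign. Between repopulating and wild-type microglia, Adamts1 was at -0.13 (wild-type replicate 1) to 0.44 (wild-type replicate 2) without 1 library. Mmp12 was at -0.090 with equal totals and -0.28 (repopulating replicate 1) to 0.19 (repopulating replicate 3) without 1 library. Mmp13 was at 0.034 with a pseudocount of 10, 0.30 with the replicate block, 0.18 with edgeR, 0.20 with DESeq2 and -0.87 (repopulating replicate 2) to 0.67 (repopulating replicate 3) without 1 library. Mmp25 was at -0.60 (repopulating replicate 1) to 0.067 (wild-type replicate 2) without 1 library. Timp2 was at -0.0039 with equal totals. Between macrophages and wild-type microglia, Adam10 was at -0.055 (macrophage replicate 2) to 0.10 (macrophage replicate 3) without 1 library. Adam15 was at -0.071 with the replicate block and -0.053 (macrophage replicate 3) to 0.10 (wild-type replicate 2) without 1 library. Mmp19 was at -0.60 (macrophage replicate 2) to 0.29 (macrophage replicate 1) without 1 library. Between repopulating microglia and macrophages, Adam10 was at -0.043 with equal totals. Mmp2 was at -0.11 with equal totals and -0.015 (repopulating replicate 3) to 0.25 (repopulating replicate 1) without 1 library. Mmp28 was at -0.41 (repopulating replicate 3) to 1.95 (repopulating replicate 2) without 1 library. The cause of these changes was not tested. Without 1 wild-type library, the lone sample is assumed to vary like the other groups. Low counts limit what can be seen in the 26 genes below the filter. In simulated data, 2-fold changes were often missed even in genes with a mean of at least 50 counts.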
